A study of Mus musculus with 5 samples.

Results

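The p75 neurotrophin receptor (p75NTR, gene Ngfr), the Trk receptors listed beside it, a co-receptor, the proteases that cut it and its cytoplasmic adaptors were followed in mouse neural stem/progenitor cells (NSPCs). The members were 9 gene symbols: Ngfr, Ntrk2, Ntrk3, Sort1, Adam10, Adam17, Maged1, Traf6 and Arhgdia. All 9 had at least 1 line in the deposited table, which made them 9 of 12588 genes and 16 of 22227 transcripts. The study asked which genes p75NTR regulates in NSPCs and compared p75NTR-/- cultures with wildtype littermate cultures of genotype p75NTR+/+. There were 3 libraries labelled p75KO (replicates 1, 2 and 4) and 2 labelled WT (replicates 1 and 4). All were of strain C57BL/6J, untreated, and kept proliferating with EGF and FGF-2, each at 20 ng/ml. The labels place the cells in E12.5 embryos, whereas the study's text calls them adult NSPCs. The allele is constitutive, so by their label the p75NTR-/- cultures came from brains that developed without the intact receptor. The study describes 4 replicates from independent NSPC preparations, more than the 3 p75KO and 2 WT libraries available here. The labels tie no replicate to an animal or litter, so the p-values measure the spread between these libraries.

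p75NTR is a receptor of the tumor necrosis factor receptor family that has no kinase of its own. It binds all neurotrophins, signals through adaptors recruited to its death domain and, with sortilin as co-receptor, binds the uncleaved pro-forms. The Trk receptors are tyrosine kinases with chosen ligands, TrkB (Ntrk2) for BDNF and TrkC (Ntrk3) for neurotrophin-3, and p75NTR can sharpen their response. ADAM proteases shed the outer part of p75NTR, after which gamma-secretase releases its inner part.

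Values are normalized counts, that is, reads assigned to a transcript divided by the library's size factor. Where a gene had several lines they were added up, which gives its gene sum. The recovered totals were between 11688211 and 14452396 counts per library, and 3 counts, the upper limit that a count of 0 allows, equal 2.94 to 3.60 normalized counts. Such limits, and the intervals given below, cover counting error only. Across the 10786 gene sums with a mean of at least 50, the 2 libraries numbered 4, which carry different labels, had a Pearson's r of 0.992. It was 0.981 between replicates 1 and 2 labelled p75KO, and 0.931 between the 2 libraries labelled WT. The libraries thus did not stand together by label, and values are also given within replicate numbers 1 and 4. All 11 NSPC markers were listed, with summed values between 90924 and 119307 normalized counts. None of the 4 microglial markers was listed.

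Ngfr, the targeted gene, went against the labels. Its listed transcript, Ngfr-201 (ENSMUST00000000122), lies on the minus strand of GRCm38 at chr11:95568818-95587735 and has 6 exons, 3446 bases and 427 codons. Replicate 1 labelled WT had 0.98 normalized counts and replicate 4 labelled WT had 2.08. In p75KO replicates 1, 2 and 4 it had 9.89, 141 and 251. The groups did not overlap, and the libraries in which the gene is labelled as deleted held the higher values. The p75KO libraries also differed among themselves, with replicate 4 at 25.4 times replicate 1 (95% counting interval 13.6 to 53.7). Behind these values stand 1 and 2 counts in WT and 10, 117 and 238 counts in p75KO. Because the targeted gene goes against them, the libraries are named by their labels throughout, and each direction is that between the labels. Whether labels were exchanged between libraries was not tested, and an exchange of the 2 labels would turn the sign of each log2 fold change given here.

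The line is known for an allele that disrupts the third exon of Ngfr, at chr11:95577974-95578333, with 360 of the 3446 bases (10.4%). The table gives 1 value for the whole transcript, so reads from exons outside the disrupted part cannot be told from reads of an intact transcript, and the high values do not show that the receptor was intact. This concerns the p75KO values alone, and why the WT values were so low was not tested. The study reports by immunoblot that cultured primary NSPCs from adult wildtype mice express p75NTR. That is protein in adult cells, whereas the labels here place the cells in embryos. Set against the 3 counts of both WT libraries together, the ratio was 6.53 (95% counting interval 1.68 to 36.9) for p75KO replicate 1, 92.8 (31.0 to 456) for replicate 2 and 166 (56.1 to 811) for replicate 4. All 3 together gave 86.4 (29.3 to 421), an interval that leaves out the spread among the p75KO libraries.

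Between the labels the gene sum of Ngfr had a log2 fold change of 4.89 (SE 1.41) on the log2(value + 1) scale, which understates changes of low genes. Its adjusted p was 0.93 in limma and 0.95 in edgeR's quasi-likelihood test, and DESeq2 gave a log2 fold change of 6.45 with an adjusted p of 0.0037. The call thus depended on the tool. Within replicate number 4 the difference was 6.36, the 2nd largest of 10786 gene sums by size, whereas the median size was 0.09. Within replicate number 1 it was 2.46, ranked 68 by size, with a median size of 0.35. The ranked gene sums had a mean of at least 50. Ngfr reached this mean only through the high values of p75KO replicates 2 and 4 (141 and 251). A high rank was thus favoured in advance, and the ranks are no test. The same holds for the DESeq2 call, which needs this mean as well. Leaving out p75KO replicate 1 gave 6.26 (adjusted p = 0.16) and leaving out p75KO replicate 4 gave 3.99 (adjusted p = 0.45), both in limma.

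Ngfr is also expressed by neural crest cells, Schwann cells and pericytes, and their markers were read beside it. Of 8 neural crest and Schwann cell markers 3 were listed, and the defining Sox10, Foxd3, Erbb3 and Tfap2a were not. The 3 summed to 813 and 477 normalized counts in WT replicates 1 and 4, and to 554, 592 and 520 in p75KO replicates 1, 2 and 4. The 2 listed of 8 mesenchyme and pericyte markers summed to 119 and 222 in WT and to 45.5, 107 and 184 in p75KO. The ranges of both sums overlapped between the labels. In bulk samples, fewer cells of a type and less RNA per cell cannot be told apart, for this and each other member.

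**Figure D1:**
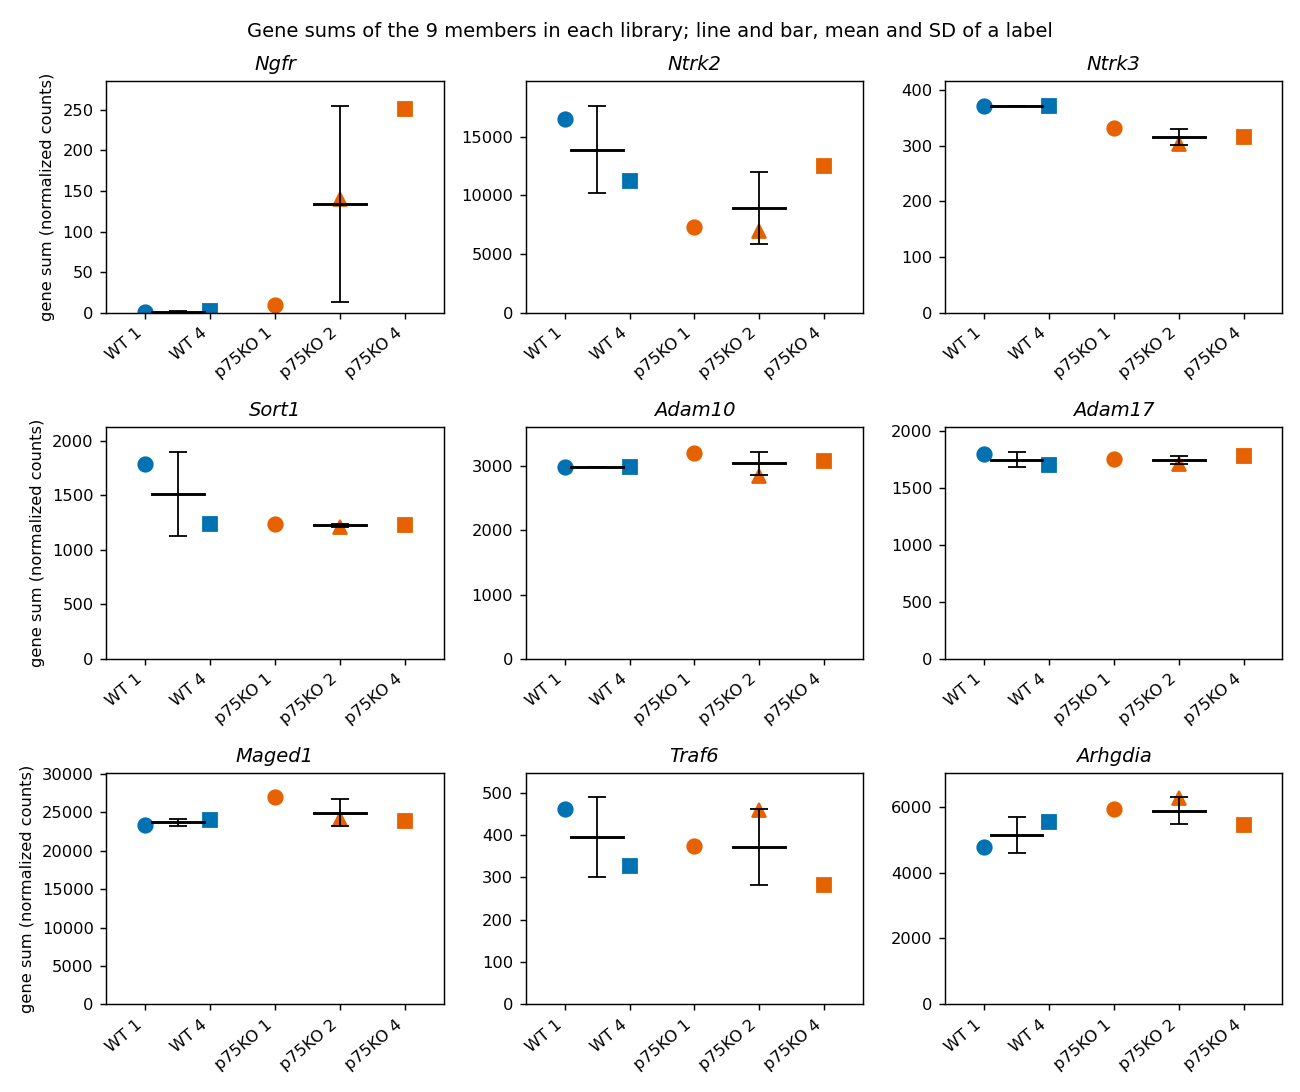
Gene sums of the 9 members in normalized counts (vertical axes from 0) in each of the 5 libraries. Blue stands for the label WT and orange for p75KO, circles, triangles and squares mark replicate numbers 1, 2 and 4, and the line and bar give the mean and SD of a label. Ngfr lay between 0.98 and 2.08 in WT and between 9.89 and 251 in p75KO, while the labels overlapped for 7 of the 9 members.

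Of the 9 member gene sums 0 were called between the labels by limma, where a call needed an adjusted p (Benjamini-Hochberg) under 0.05, a mean of 50 or more and a fold change of 1.5 or more. Among all 12588 gene sums 1 was called (0.00794%). At an unadjusted p under 0.05 there was 1 member, Ngfr, beside 2.08% of all gene sums. edgeR called 0 of 12297 gene sums (0.0%), with 260 (2.11%) at an unadjusted p under 0.05. DESeq2 called 7 of 12585 (0.0556%), among them Ngfr, with 3.0% at an unadjusted p under 0.05. Of the 16 member transcripts limma called 0 (0.0135% of all), and DESeq2 called 1 (0.126% of all), Ngfr-201. Both DESeq2 calls of Ngfr met the required mean of 50 only through p75KO (means of 1.53 in WT and 134 in p75KO). These calls were thus favoured in advance and are no separate support. For 2 of 9 members, Ngfr and Ntrk3, the labels did not overlap, beside 15.0% of all gene sums. For a single gene, the smallest p of an exact permutation test with groups of 2 and 3 is 0.1.

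**Figure D2:**
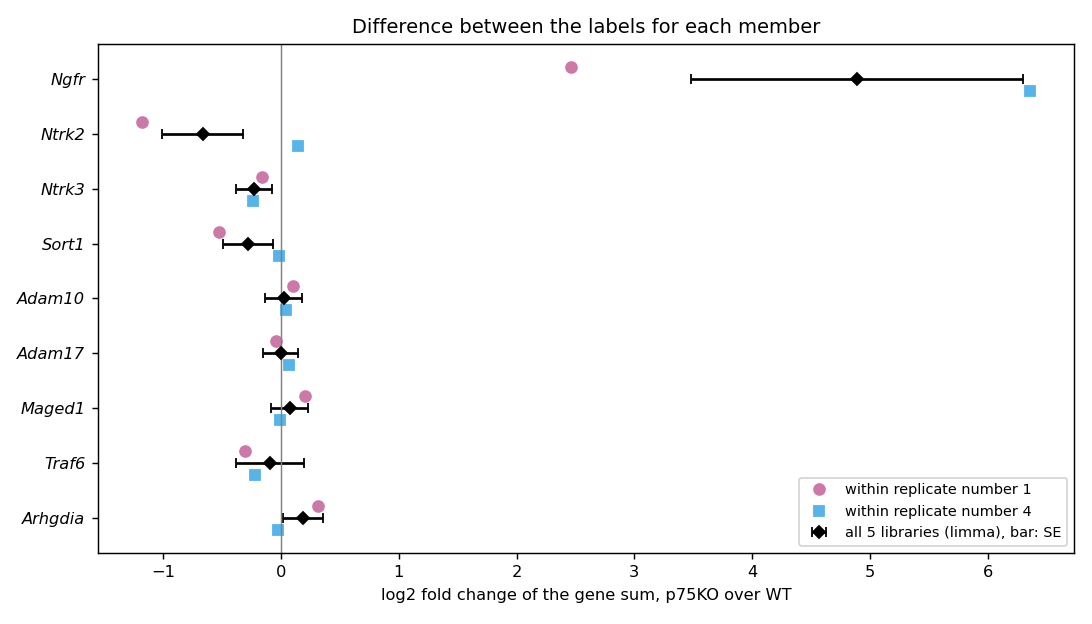
Log2 fold change of each member's gene sum, p75KO over WT. Black diamonds with bars give the limma estimate over 5 libraries with its SE, and coloured symbols the difference within replicate number 1 or 4. Ngfr stood at 4.89 and the other 8 members between -0.66 and 0.19, and Ntrk2 was at -1.17 within number 1 and at 0.15 within number 4.

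TrkB, encoded by Ntrk2 on chromosome 13, was the most abundant receptor among the members. It comes as a full-length kinase and as truncated forms that bind BDNF and lack the kinase. Of the 4 listed Ntrk2 transcripts, Ntrk2-204 (ENSMUST00000224259, chr13:58806639-58933120, plus strand, 13 exons, 476 codons) is the truncated form known as TrkB.T1, and Ntrk2-207 (ENSMUST00000225488, chr13:58806569-59129965, 18 exons, 821 codons) is the kinase form. They share 1393 coding bases. The truncated form then has 35 coding bases of its own, for its last 11 codons, and the kinase form 1070. These stretches are shown because reads over them tell the forms apart. The first is the coding end found in the truncated form at chr13:58932023-58932060, with its stop codon in capitals. The second is part of the kinase form at chr13:59060343-59060396, with the codons of the catalytic loop, which starts at codon 673, in capitals. Both are given 5′ to 3′ from the GENCODE transcripts of GRCm38.
Ntrk2-204: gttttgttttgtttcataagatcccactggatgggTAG
Ntrk2-207: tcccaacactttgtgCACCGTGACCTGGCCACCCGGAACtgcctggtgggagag

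TrkC, encoded by Ntrk3 on the minus strand of chromosome 7, has the same kind of split. Of 3 listed transcripts, Ntrk3-202 (ENSMUST00000039438, chr7:78300690-78577982, 14 exons, 612 codons) is truncated. Ntrk3-201 (ENSMUST00000039431, chr7:78175959-78578408, 17 exons, 825 codons) and Ntrk3-205 (ENSMUST00000193002, chr7:78192407-78577789, 18 exons, 839 codons) are kinase forms. The truncated form and Ntrk3-201 share 1585 coding bases and have 251 and 890 of their own. Ntrk3-205 carries an insert of 14 codons within the kinase domain. The truncated end is joined over an intron within chr7:78302629-78304426 and has its stop codon in capitals. The catalytic loop lies at chr7:78247221-78247274, in capitals from codon 677, and the insert at chr7:78204103-78204144 is printed whole in lower case.
Ntrk3-202: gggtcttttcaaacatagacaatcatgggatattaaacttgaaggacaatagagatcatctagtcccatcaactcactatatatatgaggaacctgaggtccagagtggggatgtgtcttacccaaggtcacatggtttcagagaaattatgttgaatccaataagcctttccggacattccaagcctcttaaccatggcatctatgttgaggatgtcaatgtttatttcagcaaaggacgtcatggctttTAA
Ntrk3-201: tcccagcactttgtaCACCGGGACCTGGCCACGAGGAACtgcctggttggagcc
Ntrk3-205: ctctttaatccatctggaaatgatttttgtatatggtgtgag
The loop was found once in each of the 3 kinase forms (Ntrk2-207, Ntrk3-201 and Ntrk3-205) and 0 times in Ntrk2-204 and Ntrk3-202.

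**Figure D3:**
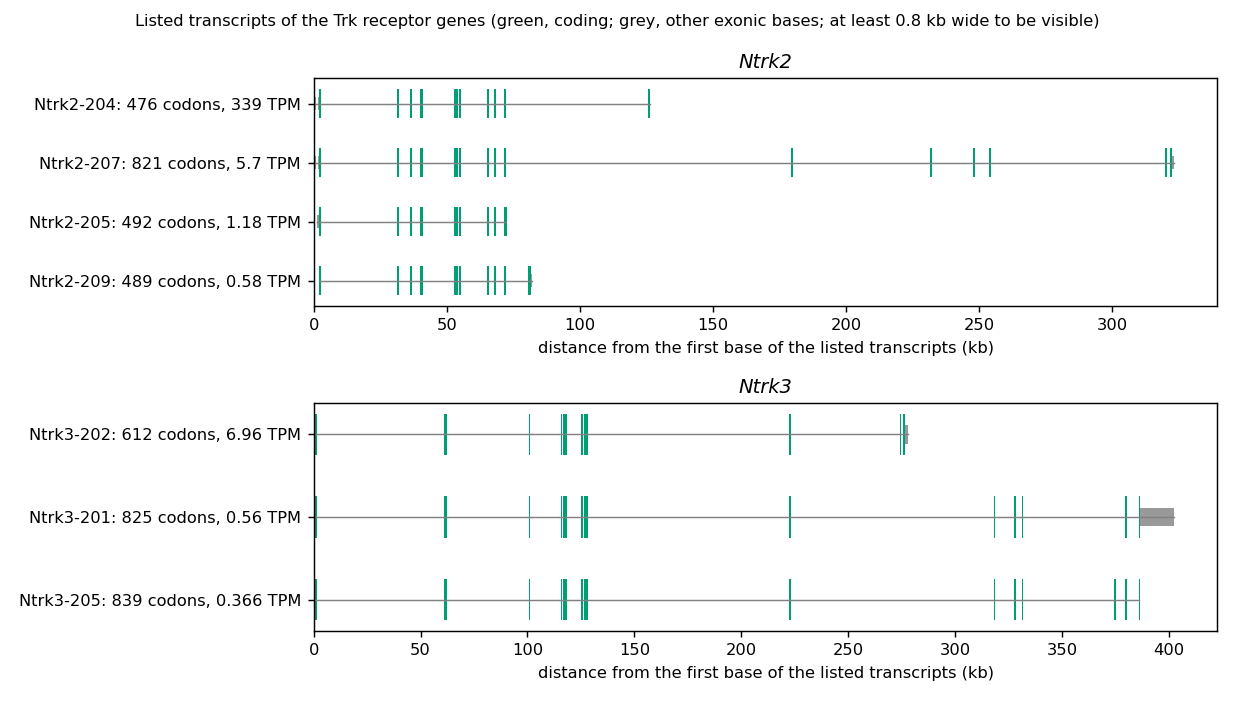
Exons of the listed Ntrk2 and Ntrk3 transcripts against the distance in kb from their first base, in the direction of transcription, with coding bases in green and other exonic bases in grey. Names carry the number of codons and the mean TPM over 5 libraries, and the truncated forms Ntrk2-204 (339 TPM) and Ntrk3-202 (6.96 TPM) end before the exons that only the kinase forms have.

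The Ntrk2 gene sum was 16519 and 11251 normalized counts in WT replicates 1 and 4. It was 7316, 6982 and 12479 in p75KO replicates 1, 2 and 4. WT replicate 1 was highest, p75KO replicates 1 and 2 were lowest, and both libraries numbered 4 lay between them, so the labels overlapped. The log2 fold change was -0.66 (SE 0.34), with an adjusted p of 0.93 in limma. Replicate number 1 alone gave -1.17 and number 4 alone 0.15. Without both libraries numbered 4 it was -1.21 (adjusted p = 0.15, with the lone WT library assumed to vary like the p75KO libraries).

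TrkB.T1 is known as the TrkB form of astrocytes. All 8 astrocyte markers were listed and summed to 51600 and 48298 normalized counts in WT replicates 1 and 4, and to 34073, 34665 and 50857 in p75KO replicates 1, 2 and 4. The sum was thus lowest in the 2 libraries with the least Ntrk2, and its part in the Ntrk2 values was not tested. Aldh1l1 and Slc1a3 made up most of the sum in each library. Gfap, the astrocyte filament gene on that list, had 241 and 680 in WT, and 11.9, 1.20 and 746 in p75KO. Aqp4, Aldh1l1, Slc1a2, Slc1a3 and Gja1 were, like Gfap, lowest in p75KO replicates 1 and 2. The remaining markers were not, as S100b was lowest in WT replicate 4 (347) and Thbs4 in WT replicate 1 (2.94).

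Truncated TrkB made up nearly all Ntrk2 RNA in each library. Per length, Ntrk2-204 had 514 and 348 TPM in WT replicates 1 and 4, and 230, 223 and 380 TPM in p75KO replicates 1, 2 and 4. Ntrk2-207 had 7.46 and 7.11 TPM in WT, and 3.54, 2.89 and 7.52 TPM in p75KO. Both forms were low in p75KO replicates 1 and 2, and p75KO replicate 4 lay near WT replicate 4. The truncated form held 97.5% to 98.6% of the gene's TPM and the kinase form 1.28% to 2.00%. The truncated form was thus at 48.9 to 77.3 times the kinase form, and this ratio overlapped between the labels. In normalized counts the log2 fold changes were -0.66 (SE 0.38) for Ntrk2-204 and -0.79 (SE 0.50) for Ntrk2-207, both with an adjusted p of 0.96 in limma. The short forms Ntrk2-205 and Ntrk2-209 together held 0.119% to 1.02% of the TPM. Of the bases of Ntrk2-204, 0 lie outside every other annotated transcript of the gene and 1098 lie outside the other listed ones. Its split from unlisted transcripts thus rests on how Salmon assigned shared reads, while the 1098 bases tell it from the kinase form.

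The Ntrk3 gene sum was 371 in both libraries labelled WT. It was 331, 303 and 315 in p75KO replicates 1, 2 and 4. The labels did not overlap, as they did not for 15.0% of all gene sums, and the difference was small. The log2 fold change was -0.23 (SE 0.15, adjusted p = 0.93 in limma), with -0.16 within replicate number 1 and -0.24 within number 4. Leaving out each library in turn moved it between -0.27 and -0.20.

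Truncated TrkC was also the main form, less one-sidedly than for TrkB. Ntrk3-202 had 7.11 and 7.91 TPM in WT replicates 1 and 4, and 6.90, 6.34 and 6.55 TPM in p75KO replicates 1, 2 and 4. The 2 kinase forms together had 1.34 and 0.81 TPM in WT, and 0.92, 0.84 and 0.72 TPM in p75KO. Ntrk3-202 was higher in both WT libraries than in any p75KO library, while the kinase forms overlapped. The truncated form held 84.1% to 90.7% of the gene's TPM, at 5.31 to 9.77 times the kinase forms. In each of the 5 libraries this ratio was below the corresponding ratio of Ntrk2, whose lowest value was 48.9. Ntrk3-201 and Ntrk3-205 had means of 31.8 and 21.1 normalized counts. Ntrk3-205 has 0 bases of its own among the annotated transcripts, so the split between the kinase forms is uncertain.

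**Figure D4:**
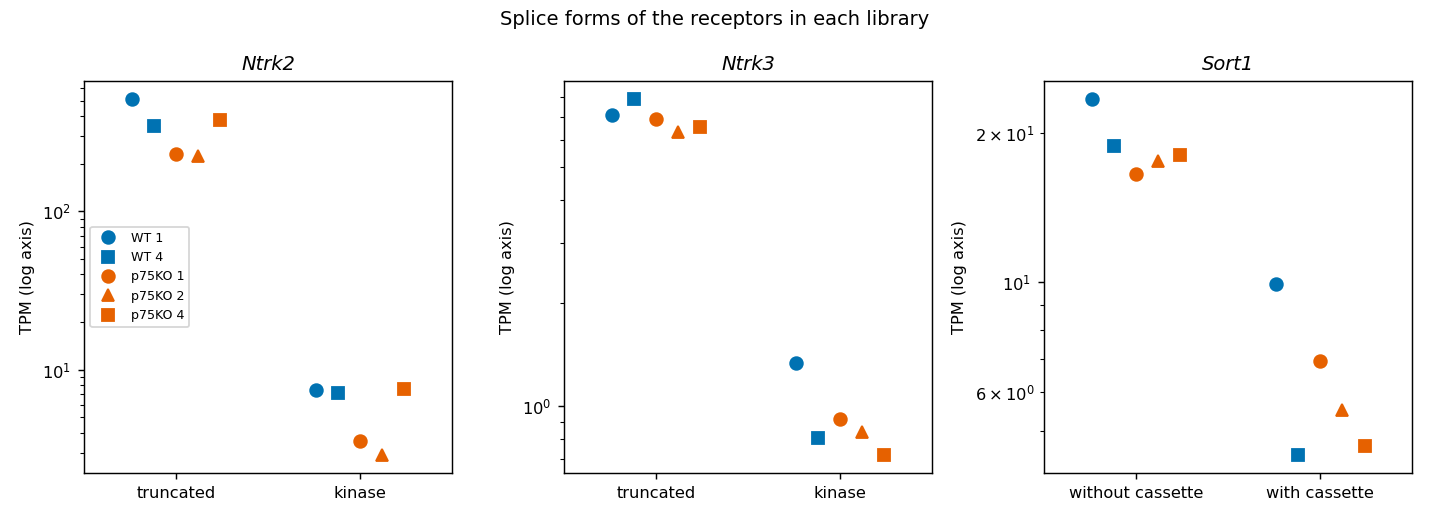
TPM (log axes) of the truncated and kinase forms of Ntrk2 and Ntrk3 and of Sort1 without and with its cassette exon, 1 symbol per library, with colours for labels and shapes for replicate numbers. The truncated form lay above the kinase form in all 5 libraries, at 48.9 to 77.3 times for Ntrk2 and 5.31 to 9.77 times for Ntrk3.

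Sortilin, encoded by Sort1, is a sorting receptor that pairs with p75NTR to bind proneurotrophins. Its 2 listed transcripts lie on the plus strand of chromosome 3, Sort1-201 (ENSMUST00000102632, chr3:108284091-108361511, 20 exons, 825 codons) and Sort1-203 (ENSMUST00000135636, chr3:108284082-108361443, 21 exons, 858 codons). They differ by a cassette exon of 33 codons at chr3:108355472-108355570, known for its control by the RNA-binding protein TDP-43. It is printed whole because this exon tells the forms apart.
Sort1-203: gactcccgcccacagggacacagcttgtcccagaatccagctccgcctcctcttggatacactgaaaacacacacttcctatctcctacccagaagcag

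The Sort1 gene sum was 1788 and 1238 normalized counts in WT replicates 1 and 4. It was 1240, 1210 and 1228 in p75KO replicates 1, 2 and 4. WT replicate 1 stood above the other 4, which lay within a narrow range. The log2 fold change was -0.28 (SE 0.21, adjusted p = 0.93 in limma). Replicate number 1 alone gave -0.53 and number 4 alone -0.01, and the value was -0.01 when WT replicate 1 was left out. The form with the cassette exon held 29.7% and 19.3% of the gene's TPM in WT replicates 1 and 4, and 29.5%, 23.9% and 20.6% in p75KO replicates 1, 2 and 4. The share was high in both libraries numbered 1 and low in both numbered 4, and overlapped between the labels. Only 68 bases of Sort1-201 and 108 of Sort1-203 lie outside the other listed form. The values of each form thus rest on how Salmon split shared reads. Sort1-203 had 549 and 248 normalized counts in WT, and 378, 299 and 262 in p75KO. Its log2 fold change of -0.25 (SE 0.43, adjusted p = 0.96 in limma) changed sign to 0.32 without WT replicate 1. Sort1-201 had 1239 and 990 in WT, and 862, 911 and 966 in p75KO, with a log2 fold change of -0.28 (SE 0.21, adjusted p = 0.96 in limma). The labels did not overlap for Sort1-201, Ntrk3-202 and Ngfr-201, which are 3 of 16 member transcripts, beside 16.6% of all transcripts.

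The proteases that shed p75NTR varied least of the 9 members between the libraries. Adam17 (TACE), the main shedding enzyme of many cytokines and receptors, had 1796 and 1698 normalized counts in WT replicates 1 and 4, and 1749, 1707 and 1779 in p75KO replicates 1, 2 and 4. Its highest library was at 1.06 times its lowest, and the labels overlapped. The log2 fold change was -0.00096 (SE 0.15, adjusted p = 1.0 in limma). Adam10, the alpha-secretase that also cuts Notch, had 2986 and 2989 in WT, and 3212, 2848 and 3077 in p75KO. The WT values lay inside the range of the p75KO values, the highest library was at 1.13 times the lowest, and the log2 fold change was 0.03 (SE 0.16, adjusted p = 0.99 in limma). The Adam17 line, Adam17-201, lies at chr12:21323517-21373632 and the main Adam10 line, Adam10-201, at chr9:70678997-70780229. The other Adam10 line, Adam10-202, annotated as a target of nonsense-mediated decay, had 1 count in p75KO replicate 2 and 0 in the other 4 libraries.

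The adaptors did not separate the labels either. Maged1 (NRAGE), which binds p75NTR and links it to cell death and cell cycle exit, had 23383 and 24011 normalized counts in WT replicates 1 and 4, and 26954, 24086 and 23907 in p75KO replicates 1, 2 and 4. The labels overlapped through p75KO replicate 4. Its log2 fold change was 0.07 (SE 0.16, adjusted p = 0.96 in limma), with 0.20 within replicate number 1 and -0.01 within number 4. The listed transcript, Maged1-201, lies at chrX:94535474-94542143. Traf6, a ubiquitin ligase that couples the receptor to NF-kappaB, had 461 and 328 in WT, and 374, 460 and 281 in p75KO. Both labels spread widely, and the libraries numbered 4 held the 2 lowest values. Its log2 fold change was -0.09 (SE 0.29, adjusted p = 0.97 in limma), and it turned to 0.15 without WT replicate 1 and to 0.09 without p75KO replicate 4. Traf6-201 lies at chr2:101678440-101701669.

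Arhgdia encodes a GDP dissociation inhibitor, which holds small GTPases inactive in the cytosol and is displaced by p75NTR. It had 4763 and 5534 normalized counts in WT replicates 1 and 4, and 5921, 6247 and 5434 in p75KO replicates 1, 2 and 4. WT replicate 1 was lowest and p75KO replicates 1 and 2 were highest, with both libraries numbered 4 between them. The log2 fold change was 0.19 (SE 0.17, adjusted p = 0.93 in limma), with 0.31 within replicate number 1 and -0.03 within number 4. Its transcript Arhgdia-202 lies at chr11:120578104-120581624. Over the 9 members, 5 had the same sign within replicate numbers 1 and 4, beside 45.5% of the gene sums with a mean of at least 10.

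Per length, the members fell into a wide order. Arhgdia led with a mean of 516 TPM ± 56.8 (SD, n = 5 libraries), followed by Maged1 with 477 ± 31.1 and Ntrk2 with 346 ± 123. The ranges of these neighbours overlapped, so their order is not fixed. Adam10 followed with 58.5 ± 2.57 TPM, below Ntrk2 in each library, and Adam17 with 30.5 ± 0.61, below Adam10 in each library. Sort1, with 25.2 ± 4.56 TPM, overlapped with Adam17. Traf6 (10.9 ± 2.36 TPM) was below Sort1 in each library. Its range overlapped with that of Ntrk3 (7.89 ± 0.69), although Traf6 was the higher of the pair in each of the 5 libraries. Ngfr came last with a mean of 3.93 TPM and a median of 0.49. Its 12.1 TPM in p75KO replicate 4 was above Ntrk3 there, whereas its 0.04 TPM in WT replicate 1 was the lowest member value. Among all gene sums the mean levels of Arhgdia, Maged1 and Ntrk2 lay at percentiles 97.6, 97.3 and 96.4, and that of Ngfr at percentile 22.8.

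**Figure D5:**
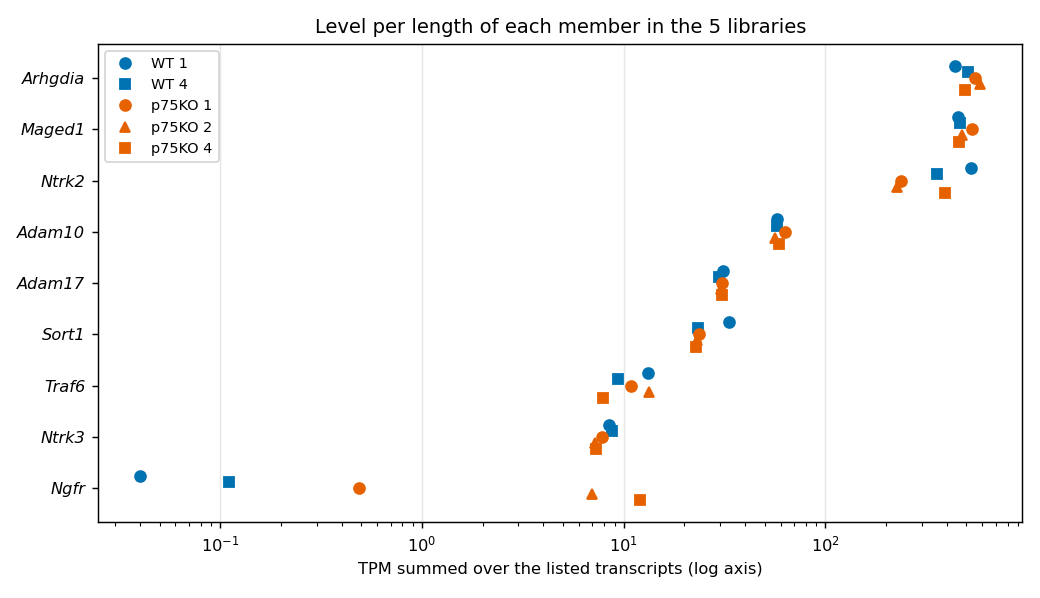
TPM of each member, summed over its listed transcripts (log axis), in the 5 libraries, with colours for labels and shapes for replicate numbers. Members are ordered by their mean, from Arhgdia at 516 TPM to Ngfr at 3.93 TPM, and Ngfr runs from 0.04 to 12.1 TPM across the libraries.

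Other genes of the p75NTR and Trk pathway were read as a list of 69 genes, of which 62 had a line. limma called 0 of the 62 in either direction, as did edgeR and DESeq2. At an unadjusted p under 0.05 there was 1, Frs3, an adaptor of Trk receptors named here after its value was seen. It had 67.7 and 59.3 normalized counts in WT replicates 1 and 4, and 32.7, 44.5 and 47.5 in p75KO replicates 1, 2 and 4 (log2 fold change -0.61, SE 0.23, adjusted p = 0.93 in limma). The log2 fold change was above 0 for 22 genes and below 0 for 39, with a median of -0.11 (-0.14 within replicate number 1 and -0.02 within number 4), beside a median of 0.0039 over all gene sums and -0.00096 over the 9 members. The labels did not overlap for 12 of the 62 (19.4%), beside 15.0% of all gene sums. The 7 genes without a line, and so without a value here, included Ntf3, Ntf5, Mag, Rhbdf2, Tspan10 and Arhgdib. Among them Ntf3 encodes the ligand of TrkC.

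Among the ligands, Bdnf, the ligand of TrkB, was detected in all 5 libraries. Bdnf had 52.0 and 182 normalized counts in WT replicates 1 and 4, and 120, 92.5 and 213 in p75KO replicates 1, 2 and 4. It was highest in the 2 libraries numbered 4, and the labels overlapped (log2 fold change 0.45, SE 0.64). The 4 proprotein convertases, which cut proneurotrophins, had a median log2 fold change of -0.09, with Pcsk7 at 0.14 (SE 0.26) and Furin at -0.32 (SE 0.25).

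Of the 4 relatives of sortilin, 3 had a log2 fold change above 0 and the median was 0.34. Sorcs2, a p75NTR co-receptor like sortilin, had 1146 and 1507 normalized counts in WT replicates 1 and 4, and 1817, 1382 and 1615 in p75KO replicates 1, 2 and 4. Its labels overlapped (log2 fold change 0.28, SE 0.22), and Sorcs1 stood at 0.54 (SE 0.30). WT replicate 1 was the lowest library for both genes. Within number 1 Sorcs1 had a difference of 1.15 and Sorcs2 of 0.66, against 0.09 and 0.10 within number 4.

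All 5 listed genes of the Nogo receptor complex, in which p75NTR takes part with Lingo1 and the Nogo receptor, had values below 0, with a median of -0.54. Omg, a myelin ligand of the receptor, had 2530 and 579 in WT replicates 1 and 4, and 561, 883 and 634 in p75KO replicates 1, 2 and 4. Lingo1 had 1738 and 755 in WT, and 573, 901 and 749 in p75KO. For both genes WT replicate 1 stood far above the other 4 libraries, and the labels overlapped. Within replicate number 4 Omg had a difference of 0.13 and Lingo1 of -0.01, against -2.17 and -1.60 within number 1. The median of the 5 genes was -0.99 within number 1 and -0.01 within number 4. Rtn4, which encodes Nogo itself, stood at -0.26 (SE 0.21).

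The 7 gamma-secretase genes had a median of -0.22, which was -0.41 within replicate number 1 and 0.09 within number 4, with Ncstn, its nicastrin subunit, at 0.02 (SE 0.17) and Aph1a at -0.17 (SE 0.18). Of 9 listed regulators of the ADAM proteases, 8 had values below 0, beside 49.3% of all gene sums, with a median of -0.39. Replicate number 1 alone gave a median of -0.40 and number 4 alone -0.10, where 7 of the 9 lay below 0. Tspan5, a tetraspanin that guides Adam10, stood at -0.05 (SE 0.15), and Timp3, an inhibitor of Adam17, at -0.23 (SE 0.35). Tspan15, also a guide of Adam10, had 1128 and 693 normalized counts in WT replicates 1 and 4, and 497, 596 and 645 in p75KO replicates 1, 2 and 4 (log2 fold change -0.62, SE 0.27, adjusted p = 0.93 in limma). The labels did not overlap for Tspan15, and WT replicate 1 stood apart, with a difference of -1.18 within number 1 and -0.10 within number 4.

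The 12 other p75NTR adaptors lay evenly on both sides of 0, with 6 above and 6 below and a median of -0.0018. Traf4 stood at 0.13 (SE 0.30) and Bex3 (NADE), a death domain partner of the receptor, at -0.02 (SE 0.17). The 13 Trk adaptors had a median of -0.15, with 3 above and 10 below 0, and number 1 alone gave -0.37 and number 4 alone -0.05. Kidins220, a scaffold of Trk receptors and p75NTR, had 6700 and 4310 normalized counts in WT replicates 1 and 4, and 3903, 3717 and 4329 in p75KO replicates 1, 2 and 4. It was highest in WT replicate 1, with a log2 fold change of -0.43 (SE 0.24, adjusted p = 0.93 in limma), and differed by -0.78 within number 1 and 0.01 within number 4.

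Gene sums with the most similar pattern were found by the root mean square difference of centred log2 values over the 5 libraries, among the 10785 other gene sums with a mean of at least 50. For Ngfr the closest was Tmem267 at 1.73 log2 units, followed by Gm15446 (2.03), Duxbl2 (2.19), Pemt (2.31) and Tmem254c (2.31), beside a median of 2.85 over all genes. None of these was close to the pattern of Ngfr by this measure. In each of them every p75KO library lay above both WT libraries, as for Ngfr, whose pattern chose them. Gm15446 had 0 normalized counts in both WT libraries, and 182, 183 and 150 in p75KO replicates 1, 2 and 4. Tmem267 had 55.0 and 41.6 normalized counts in WT, and 88.1, 232 and 325 in p75KO replicates 1, 2 and 4, a range of 7.82-fold, while Ngfr spanned 257-fold. For Ntrk2 the closest were Vwa5a (0.05), Man1c1 (0.06) and Glud1 (0.07), beside a median of 0.53. For Ntrk3 they were Nek4 (0.03), Tmod2 (0.03) and Sertad3 (0.03), beside 0.26, and for Sort1 they included Tmub2 (0.02) and Pccb (0.03), beside 0.32.

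Genes around Ngfr were read because a targeted allele carries flanking chromosome with it. Within 1 Mb of the gene 23 genes had a line, 18 of them with a mean of at least 50, and limma called 0 of them. At an unadjusted p under 0.05 there was 1 of the 23 (4.35%, beside 2.08% of all gene sums). The labels did not overlap for 4 of the 23 (17.4%, beside 15.0% of all gene sums). The log2 fold changes of the 18 ran from -0.94 to 0.58 with a median of -0.09. The nearest listed gene on the side of lower coordinates, Nxph3, lies 54.2 kb away and had 4.91 and 39.5 normalized counts in WT, and 0.99, 1.20 and 26.4 in p75KO replicates 1, 2 and 4. On the other side Phb, 79.2 kb away, had 1848 and 2386 in WT, and 2616, 2740 and 2398 in p75KO. Nxph3 was high in both libraries numbered 4, and for Phb the labels did not overlap, with WT replicate 1 lowest. Neither of these neighbours had the pattern of Ngfr across the libraries.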

How the data were processed

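Polyadenylated RNA was sequenced with a stranded mRNA kit, from 500 ng of input RNA per sample. Per the labels and the study's methods, the authors quantified reads with Salmon 0.10.2 against GRCm38.p6 transcripts and normalized them with DESeq2 1.22.0 in R 3.6.1. The authors' deposited signal is the size-factor normalized count of a transcript with 0.5 added. The deposited TPM signal of each transcript was used for levels per length. The authors' mean (a score), log2 fold change and p-value columns hold their own comparison or samples outside these libraries and were not used. Of the per-sample columns 0 were unused.

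The table has 22530 lines. 303 repeated lines were dropped, which left 22227 transcripts and 12588 gene sums. After 0.5 was subtracted, 100% of values under 1000 were whole multiples of a step of 0.981 to 1.20 (tolerance 0.0101), and counts were recovered by division. limma 3.58.1 (lmFit, eBayes) was run on log2(normalized count + 1) over all transcripts and over all gene sums, for 2 WT against 3 p75KO libraries without covariates. Calls needed an adjusted p (Benjamini-Hochberg) under 0.05, a mean of 50 or more and a fold of 1.5 or more, the criteria of the study's methods. edgeR 4.0.16 and DESeq2 1.42.0 were run on the recovered counts in R 4.3.3 as alternatives, and the procedures were tested on simulated data. The simulated counts had the same dispersion for each gene and no grouping by replicate number, unlike these libraries. They thus do not show how the tools perform here. Ratios of counts have exact conditional binomial intervals. Transcript coordinates and sequences come from GENCODE M21, matched by identifier for 22199 transcripts (99.9%). The members and lists were chosen with earlier results of these data known. Named are the 9 members, their transcripts with a mean of at least 10 (15 of 16), pathway genes called, unlisted or at 0, pathway examples of high mean count, the genes most like Ngfr (5) and Ntrk2, Ntrk3 and Sort1 (3 each), and neighbours of Ngfr. Some genes these rules name are not reported here. Frs3, Lingo1, Gfap, the other astrocyte markers, Fabp7, Vim, Sox9 and Adam10-202 were added after their values were seen. Python 3.11.15, pandas 2.3.3 and matplotlib 3.10.9 were used.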

Additional observations from a re-analysis of the deposited data

How the results depend on the processing

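The number of member transcripts and of member gene sums called was 0 in limma under each pseudocount, filter, minimum mean, TMM scaling, variance trend and left-out library tried, and in edgeR. Ngfr met the mean required for a call only through p75KO replicates 2 and 4. DESeq2 called 1 member transcript and 1 member gene sum, both of Ngfr, whose log2 fold change was then 6.45 (adjusted p = 0.0037). Over the other alternatives for Ngfr it ran from 3.66 with a pseudocount of 5 to 6.34 in edgeR, and the adjusted p from 0.16 without p75KO replicate 1 to 1.0. The cause of the difference between tools was not tested. Pathway gene sums had 0 calls under each alternative.

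The replicate numbers name no shared litter or day in the labels, and WT and p75KO share 2 of them. Deviations from the group means correlated at 0.26 between WT and p75KO for number 1 and at 0.48 for number 4, and WT replicate 1 correlated more with p75KO replicate 2 (0.48). The deviations of the 2 WT libraries are equal and opposite, so these correlations are tied to each other and cannot test the pairing separately. With the replicate number as a block the counts of calls were 0 for member transcripts, 0 for member gene sums and 0 for the pathway, and over the whole data calls went from 3 to 0 transcripts and from 1 to 0 gene sums. That fit equals leaving out p75KO replicate 2 for each estimate, as number 2 has no partner. Under the block Adam17 was at 0.015, and with TPM sums at 0.0097, against -0.00096. Leaving out each library in turn moved Adam10 between -0.013 and 0.074, Adam17 between -0.041 and 0.040, Traf6 between -0.34 and 0.15, and Sort1-203 between -0.82 and 0.32, so these values near 0 have no fixed sign. The other 6 member gene sums kept their sign under each alternative run. The median log2 fold change of the pathway ran from -0.16 without p75KO replicate 4 to -0.05 without p75KO replicate 1. With WT at 3 counts in all, counting limits the ratio of Ngfr, and so does the spread among the p75KO libraries.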
